A study of Mus musculus with 54 samples.

Results

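NIH3T3 is an established line of mouse embryonic fibroblasts. The libraries described here are 5 from NIH3T3 cultures that received 10 Gy of ionizing radiation, taken 1, 2, 3, 4 and 5 h later, and 1 from an untreated NIH3T3 culture, called 0 h. They are 6 of the 54 libraries of a series that also holds spleen, thymus and both intestines of irradiated C57B6 mice, and 6 of its 14 NIH3T3 libraries. The genes were those with a mean of at least 1 FPKM over the 6 libraries, which gave 10336 of the 13611 genes in the deposited table. FPKM is the number of fragments relative to transcript length and to all mapped fragments. The series title ties p53 activity to the radiation sensitivity of tissues, and the comparison asks which transcripts of the fibroblasts moved in the first hours after the dose. No irradiated hour has an untreated culture of its own hour, so radiation cannot be told apart from time in culture or handling.

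Radiation breaks DNA, and the kinases that sense the breaks stabilise p53, a transcription factor. It induces genes that halt the cell cycle, genes that promote cell death and genes of DNA repair, and it also induces Mdm2, the ubiquitin ligase that degrades it, so p53 can rise and fall in pulses. A second arm of the damage response holds cells before mitosis. Fibroblasts mostly answer radiation with arrest, while many lymphoid cells die.

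Markers of the line matched its name. All 14 fibroblast markers passed the level filter, led by S100a4 with a mean of 9783 FPKM. All 14 epithelial markers lay below 1 FPKM, and 15 of 16 lymphoid and myeloid markers did so, the exception being the lysosomal gene Cd68 at 3.30 FPKM. The fat marker Fabp4 averaged 20.0 FPKM and the elastase gene Cela1 7.56 FPKM. The summed level of the 10 measured pancreas, liver and erythroid markers was 5.58 to 9.92 FPKM at 1 to 5 h and 7.68 FPKM at 0 h. For the other marker lists it was 12546 to 15118 FPKM at 1 to 5 h and 16360 FPKM at 0 h (fibroblast), 19.0 to 24.6 and 31.2 (endothelial, muscle and fat), 3.74 to 5.46 and 3.80 (lymphoid and myeloid), and 0.098 to 0.512 and 0.716 (epithelial). The fibroblast, endothelial and epithelial sums thus lay higher at 0 h than in any irradiated library, and their part in the changes was not tested. Within these lists the endothelial, muscle and fat markers had 3 and the epithelial markers 6 genes at 0 in all 6 libraries. The lymphoid and myeloid markers had 10 such genes, and the pancreas, liver and erythroid markers 6.

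The 0 h library stood apart in one measure that touches every comparison with it. Across genes, its deviation from the mean of the NIH3T3 libraries had a Spearman correlation of -0.40 with transcript length, against -0.06 to 0.10 in the 5 irradiated libraries and -0.24 to 0.28 in the 8 later ones. In 5 equal bins of genes from shortest to longest transcript, the median change at 1 to 5 h was -0.15, -0.12, -0.04, 0.03 and 0.17 on the log2 scale. Genes that rose had a median transcript length of 3427 bases, those that fell 1057 bases, and all tested genes 2185.5 bases. Results are therefore also given with each library's trend over length removed, a choice made after seeing the data. Its part in the single changes was not tested beyond that.

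**Figure D1:**
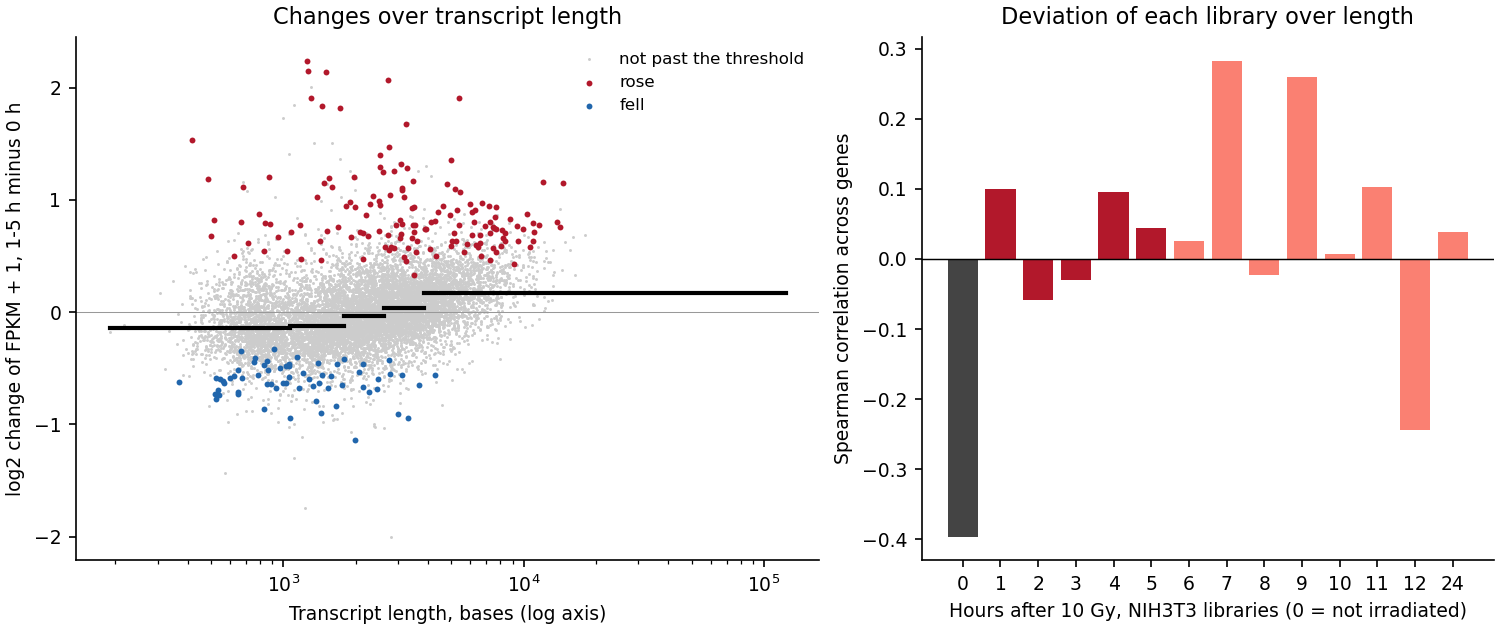
Left, each point is a tested gene with its transcript length in bases (log axis) against its log2 change of FPKM + 1 at 1 to 5 h minus 0 h, in red where it rose and blue where it fell, and black bars are medians of 5 equal bins of genes (-0.15 in the shortest and 0.17 in the longest). Right, bars give the Spearman correlation across genes between transcript length and the deviation of each NIH3T3 library (grey 0 h, dark red 1 to 5 h, light red later hours), lowest in the 0 h library at -0.40.

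Of the 10336 genes, 152 rose and 67 fell at 1 to 5 h relative to 0 h, which is 1.47% and 0.648% of the genes tested and together 2.12%. The test was limma on log2(FPKM + 1), with calls at a Benjamini-Hochberg adjusted p below 0.05. Changes below are differences of log2(FPKM + 1) ± SE, a scale that understates low genes. On this scale changes were mostly small: 40 genes rose and 1 fell by 2-fold or more in FPKM + 1. In FPKM alone some further called genes passed 2-fold, as Coa4, at 0.473 of its 0 h level, and Sesn3, at 3.64 times it. All 152 risers lay above 0 h in all 5 irradiated libraries, as did 2568 of all tested genes (24.8%), and all 67 fallers lay below it, as did 2881 (27.9%). In the 8 later libraries the 152 risers also stayed above 0 h, and 55 of the 67 fallers stayed below it. This is read against the same single 0 h library, which lay outside the range of all 13 irradiated libraries for 3420 of the tested genes (33.1%). With the single 0 h library, the spread at 0 h is assumed to equal that within the other windows. Separate cultures for each hour are not stated in the labels, so the p-values speak of library-to-library spread, which may be technical. Without the 4 h library 81 genes rose and 11 fell, without the 5 h library 103 rose and 34 fell, and with the length trend removed 104 rose and 27 fell, of which 102 were among the 219 genes called here. By direction 85 of the 152 risers and 17 of the 67 fallers kept their call. A transcript length was known for 148 of these risers and 65 of these fallers, and the rest could not be tested in that setting.

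Several targets of p53 rose, most of them genes of arrest, feedback and cell death. Of the 55 tested members of 3 lists of known p53 targets, 15 rose and 0 fell, against 1.47% and 0.648% of all tested genes, and their median change was 0.34 against -0.02 over all genes. These lists, like the other gene lists, were chosen with earlier results of these data known, so the contrast with all genes is descriptive. A further 8 listed targets lay below 1 FPKM, among them the cytokine gene Gdf15, which was listed at 0 FPKM at 0 h. By list, 7 of 18 arrest and feedback targets rose (median 0.51), 6 of 16 apoptosis targets (median 0.63) and 2 of 21 repair and metabolism targets (median 0.09). All 5 irradiated libraries lay above 0 h for 26 of the 55, where 24.8% of all genes did so. With the length trend removed, 14 of 54 rose and 0 fell, 13 of them among the 15. Fitting the 6 libraries alone left 7, fitting 1 to 5 h as 1 window left 8, and leaving out the 1 h library gave 22.

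Trp53, which encodes p53 itself, stood at 67.4, 63.2, 62.1, 70.2 and 68.6 FPKM at 1, 2, 3, 4 and 5 h, against 58.2 FPKM at 0 h. The 5 irradiated values lay above 0 h, and the change of 0.18 ± 0.10 did not pass the test (limma adjusted p = 0.30). Among the 20 genes for p53 and the DNA damage kinases, 0 were called by limma (median change 0.03). The deubiquitinase gene Usp7, which acts on p53 and Mdm2, had a change of 0.28 ± 0.11 (limma adjusted p = 0.165).

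Arrest and feedback targets came first in level. Cdkn1a encodes p21, the inhibitor of cyclin-dependent kinases that halts the cycle. It stood at 238, 291, 156, 187 and 188 FPKM at 1, 2, 3, 4 and 5 h, against 89.7 FPKM at 0 h, a change of 1.20 ± 0.12 (limma adjusted p = 0.000335). Every irradiated library was above 0 h, the 2 h library was highest and the 3 h library lowest. Mdm2 stood at 95.3, 98.2, 43.5, 58.0 and 53.1 FPKM at 1 to 5 h, against 30.2 FPKM at 0 h (1.10 ± 0.15, limma adjusted p = 0.00408). Its 1 and 2 h values were both above all later ones. Ccng1, which encodes cyclin G1, had 181, 234, 250, 240 and 232 FPKM at 1 to 5 h, against 117 FPKM at 0 h (0.94 ± 0.13, limma adjusted p = 0.00565). Here the 1 h library was the lowest irradiated one and the 3 h library the highest.

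Promoter windows are shown for called p53 targets with a match, which all rose but differed in their course over the hours. At 3 to 5 h minus 1 to 2 h, Mdm2 and Cdkn1a had -0.91 and -0.58, and Ccng1 and Ei24 had 0.22 and 0.28. The tables of RefSeq for GRCm38.p6 gave the bases from 250 before to 50 after the start site for 8322 of the tested genes. Where a gene had more than 1 start site, only the first listed was used, and distances refer to that start. The p53 half-site, the decamer that p53 dimers bind, was searched without mismatches on both strands. It was present in 4 of the 12 called p53 targets that had a promoter (33.3%), in 11 of 45 tested ones (24.4%) and in 540 of 8322 promoters (6.49%). The half-site was in 3 of 110 other genes that rose (2.73%). Among the G2 and M genes described below, it was in 2 of 6 that fell (33.3%) and in 4 of 31 tested (12.9%). A full site is a pair of half-sites and was searched more loosely. Each of its half-sites could have 1 mismatch outside its 4 central bases, and a short spacer between them was allowed. A full site was found in 83 of 8322 (0.997%) and in 1 of the 12, Cdkn1a, which had more than 1 match. The match shown has such a mismatch in its second half-site. Another, not shown, begins 73 bases upstream and overlaps it. The counts of full sites and half-sites thus do not follow the same rule. A match describes the letters only, and sites outside the window were not searched. In each line capitals mark the match, and the strand is that of the gene:
Cdkn1a full site, beginning 51 bases upstream, chr17:29090903-29090972, plus strand: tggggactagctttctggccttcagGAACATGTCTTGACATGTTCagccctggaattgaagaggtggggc
Mdm2 half-site, 186 bases upstream, chr10:117710910-117710969, minus strand: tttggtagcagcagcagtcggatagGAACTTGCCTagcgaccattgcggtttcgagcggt
Ccng1 half-site, 185 bases upstream, chr11:40755437-40755496, minus strand: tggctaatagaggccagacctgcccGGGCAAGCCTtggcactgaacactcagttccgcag
Ei24 half-site, 10 bases upstream, chr9:36797310-36797369, minus strand: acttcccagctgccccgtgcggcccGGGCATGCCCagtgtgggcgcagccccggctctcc

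Btg2, an antiproliferative gene, stood at 28.8, 22.5, 9.99, 16.5 and 13.7 FPKM at 1 to 5 h, against 5.56 FPKM at 0 h (1.47 ± 0.22, limma adjusted p = 0.00772). Sesn2, whose product restrains mTORC1 under stress, stood at 34.0, 19.2, 9.24, 14.3 and 12.3 FPKM, against 6.62 FPKM at 0 h (1.17 ± 0.23, limma adjusted p = 0.024). Both were highest at 1 h and lowest at 3 h among the irradiated libraries, and neither group overlapped 0 h. Zmat3, an RNA-binding protein gene, rose by 0.94 ± 0.18 and Cep170b, a paralog of a centrosomal protein gene, by 0.96 ± 0.20. Both have long transcripts, 7672 and 5980 bases, and with the length trend removed they had limma adjusted p = 0.097 and 0.108. Plk2, a stress kinase gene and p53 target, averaged 67.4 FPKM at 1 to 5 h and 62.8 FPKM at 0 h (0.08, limma adjusted p = 0.789).

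Death-promoting targets rose as well. Trp53inp1, which promotes cell death and autophagy, had 38.7, 53.8, 29.7, 32.9 and 34.5 FPKM at 1, 2, 3, 4 and 5 h, against 9.18 FPKM at 0 h. Its change of 1.90 ± 0.16 (limma adjusted p = 2.88e-05) was the largest of the p53 targets. It averaged 28.5 FPKM at 6 to 8 h and 27.5 FPKM at 9 to 12 h, and stood at 31.6 FPKM at 24 h. Bbc3, which encodes the BH3-only killer PUMA, had 7.68, 8.27, 3.62, 4.98 and 3.83 FPKM, against 1.81 FPKM at 0 h (1.19 ± 0.18, limma adjusted p = 0.00772). Pmaip1, which encodes the BH3-only killer NOXA, had 5.34, 6.99, 5.45, 3.53 and 3.66 FPKM, against 1.39 FPKM at 0 h (1.29 ± 0.21, limma adjusted p = 0.0105). For both the irradiated libraries lay above 0 h, and the 2 h library was the highest.

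Eda2r, a receptor of the TNF receptor family, had 19.1, 30.0, 13.8, 10.1 and 15.7 FPKM at 1 to 5 h, against 6.06 FPKM at 0 h (1.32 ± 0.26, limma adjusted p = 0.0234). Pidd1, a scaffold for caspase-2, rose by 1.09 ± 0.18 and Ei24, a gene first found as etoposide-induced, by 0.64 ± 0.15. Of the other apoptosis targets, Bax, which permeabilises mitochondria, averaged 229.7 ± 13.3 FPKM at 1 to 5 h (SD, n = 5) and stood at 233 FPKM at 0 h, a change of -0.02 (limma adjusted p = 0.933). The death receptor gene Fas had a change of 0.18, and Phlda3, an inhibitor of Akt, one of 0.48 (limma adjusted p = 0.792 and 0.0824). With the length trend removed Phlda3 was called (limma adjusted p = 0.0479). The survival genes Bcl2l1 and Mcl1, outside the p53 lists, had changes of 0.07 and -0.10, and 0 of the 11 Bcl2 family genes in that list were called by limma.

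Of the repair and metabolism targets, 2 of 21 rose. Ercc5, the nuclease of nucleotide excision repair, had 11.5, 14.6, 13.7, 11.5 and 14.9 FPKM at 1 to 5 h, against 7.47 FPKM at 0 h (0.74 ± 0.15, limma adjusted p = 0.024). Ddias, a gene induced by DNA damage, had 17.0, 20.6, 11.7, 12.5 and 12.1 FPKM, against 7.90 FPKM at 0 h (0.79 ± 0.14, limma adjusted p = 0.0185). For both all irradiated values lay above 0 h. The damage-recognition genes Ddb2 and Xpc had changes of 0.09 and -0.22 (limma adjusted p = 0.798 and 0.594). Polk, a translesion polymerase gene, had a change of 1.09 (limma adjusted p = 0.0549).

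**Figure D2:**
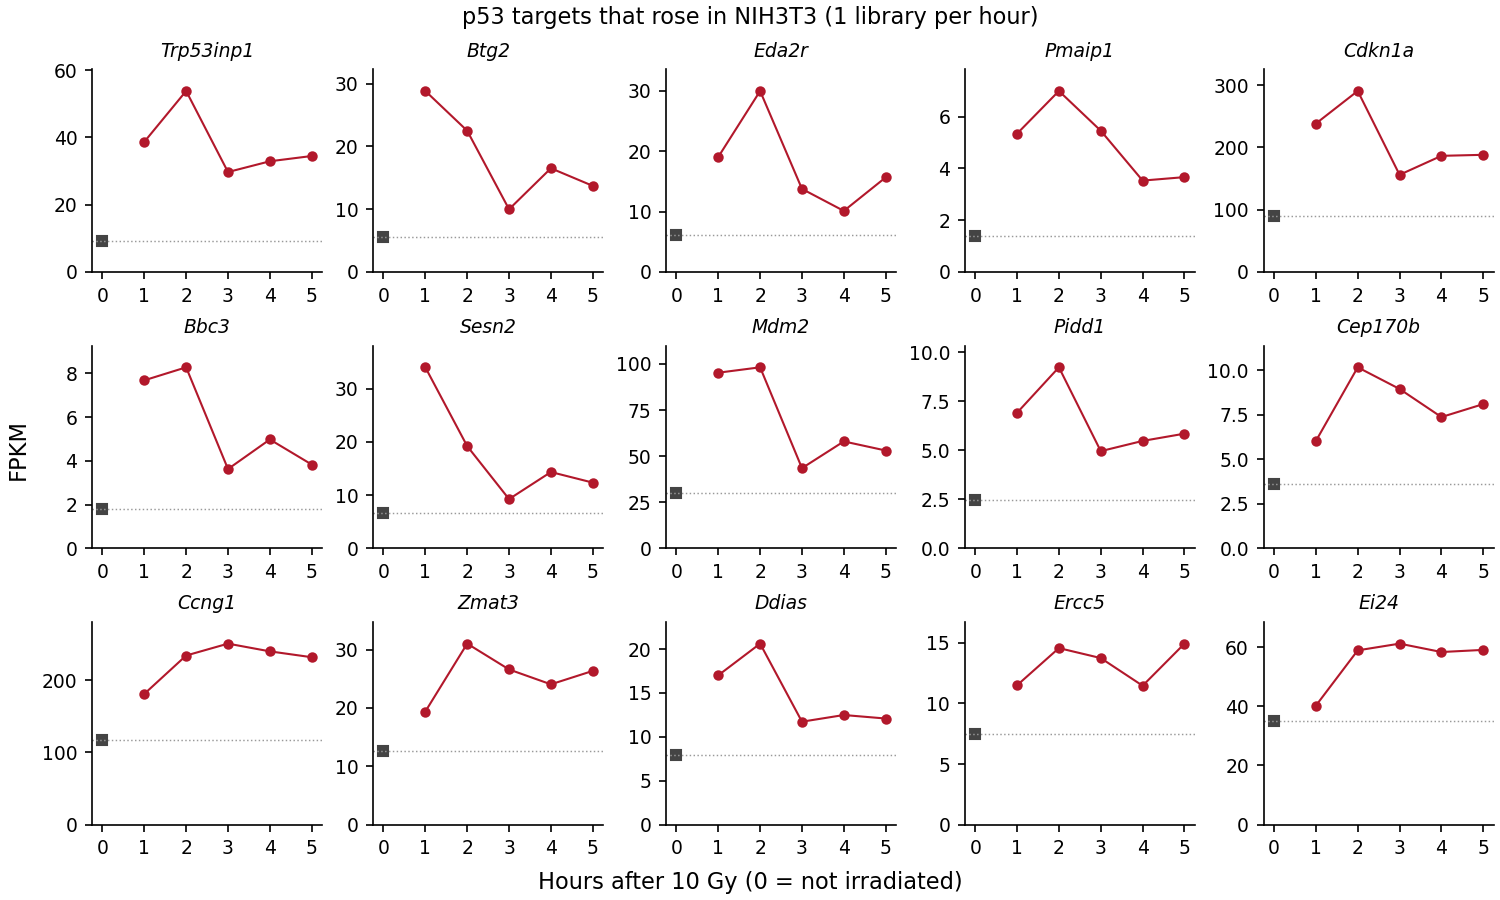
Each panel plots 1 of the 15 called p53 targets, with FPKM on the vertical axis and hours after 10 Gy on the horizontal axis; red points are the 5 irradiated libraries, the grey square and dotted line the 0 h library, with 1 library per hour and no error bars. All red points lie above the 0 h level, and 12 of 15 genes have their highest value at 1 or 2 h, 10 of them at 2 h.

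The called p53 targets mostly had their highest level in the 2 h library. Of the 15 that rose, 12 (80%) had their highest value at 1 or 2 h, against 46.5% of all tested genes and 43.8% of the other 137 genes that rose. Of these 12, 10 were highest at 2 h and 2 at 1 h. Among the other 137 risers 41 were highest at 2 h and 19 at 1 h, and among all 10336 tested genes 2002 and 2801. A dip at 3 h, lower than both 2 h and 4 h, was seen in 8 of the 15 (53.3%), in 54.7% of the other risers and in 32.6% of all tested genes. With 1 library per hour, shared by all genes, a peak at 2 h or a dip at 3 h cannot be told apart from a property of that library. When 3 to 5 h was tested against 1 to 2 h in the same fit, 1 of 10336 genes passed (0.00967%). That gene was Mdm2, lower at 3 to 5 h by -0.91 ± 0.12 (limma adjusted p = 0.0341). Its 3 later values of 43.5 to 58.0 FPKM did not overlap its 2 earlier ones of 95.3 and 98.2 FPKM. In that contrast Btg2 had a value of -0.90 and Eda2r of -0.83, with limma adjusted p = 0.129 and 0.213. At an unadjusted p below 0.05, 541 genes were higher and 582 lower at 3 to 5 h. Leaving out the 2 h library raised the count to 59, and leaving out the 1 h library gave 5 genes without Mdm2.

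Outside the p53 lists the highest rise among genes measured in all 6 libraries was that of Fam92a, also named Cibar1, a BAR-domain protein at the base of cilia. It had 18.01, 21.7, 17.1, 16.8 and 13.5 FPKM at 1, 2, 3, 4 and 5 h, against 3.87 FPKM at 0 h (1.91 ± 0.16, limma adjusted p = 2.88e-05). Tead4, a DNA-binding partner of YAP, had 5.86, 7.51, 7.94, 6.39 and 9.28 FPKM, against 1.35 FPKM at 0 h (1.82 ± 0.19, limma adjusted p = 0.000335). Rassf5, a Ras-binding tumour suppressor, had 4.11, 2.56, 4.97, 5.05 and 4.21 FPKM, against 0.597 FPKM at 0 h (1.67 ± 0.21, limma adjusted p = 0.0022). None of these irradiated values overlapped 0 h, and all 3 genes stayed called with the length trend removed. Tead4 was the 1 called member of 22 YAP and SRF targets, whose median change was -0.25.

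The other leading risers were Taf9b, a TFIID subunit paralog (1.40), the repressor gene Zbed6 (1.36), the kinase inhibitor gene Fam212b (1.29) and the uncharacterised C130083M11Rik and 9230114K14Rik (1.43 each). Zbed6 lies within the gene Zc3h11a, so its fragments may be shared with it. The pair of uncharacterised genes are neighbours on chromosome 5, spanning 52199984 to 52216433 and 52190681 to 52197984 in GRCm38.p6. A further 8 risers were listed below 0.1 FPKM at 0 h. Of these Taf1a, a subunit of the RNA polymerase I selectivity factor, had 4.13, 3.61, 3.71, 3.58 and 3.69 FPKM at 1 to 5 h, against 0.003 FPKM at 0 h. Whrn, a scaffold protein of sensory cells, had 3.87, 0.854, 4.61, 3.86 and 4.66 FPKM at 1 to 5 h, against 0.012 FPKM at 0 h. Such near-zero values can be failed estimates, and no fold is given.

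Genes of the G2 and M phases, which drive entry into and passage through mitosis, were lower in the irradiated cells. Of 39 tested members 9 fell and 0 rose, against 0.648% and 1.47% of all genes, all 39 had a negative change, and the median was -0.49. This list too was chosen with earlier results of these data known. All 5 irradiated libraries lay below 0 h for 28 of the 39, where 27.9% of all tested genes did so. The median change by hour was -0.24, -0.60, -0.64, -0.62 and -0.42 at 1, 2, 3, 4 and 5 h. With the length trend removed 8 members fell and the median was -0.50. These were 6 of the 9 and 2 others, Nusap1 and Nek2, while Cdkn3, Cenpa and Birc5 were not called (limma adjusted p = 0.0848, 0.0613 and 0.0522). The count of 9 rests on few libraries: omitting the 4 h library left 1, omitting the 3 h library left 5 and omitting the 1 h library gave 20. It was 3 with quantile normalization, and 1 when the 6 libraries were fitted alone.

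Ccnb1, the mitotic cyclin B1, had 13.8, 10.4, 10.97, 11.5 and 13.95 FPKM at 1 to 5 h, against 19.7 FPKM at 0 h (-0.67 ± 0.15, limma adjusted p = 0.0342). Ccnb2, cyclin B2, had 12.05, 12.1, 9.22, 9.82 and 9.19 FPKM, against 17.2 FPKM at 0 h (-0.68 ± 0.12, limma adjusted p = 0.0181). Cdkn3, a phosphatase of cyclin-dependent kinases, had 17.9, 14.6, 11.8, 11.7 and 13.9 FPKM, against 26.5 FPKM at 0 h (-0.89 ± 0.21, limma adjusted p = 0.0443). All irradiated values of these 3 genes lay below 0 h, with the lowest between 2 and 5 h. Ccnb1 averaged 15.6 FPKM at 6 to 8 h and 18.6 FPKM at 9 to 12 h. Pif1, a DNA helicase, fell by -0.95 ± 0.22. The others called were the spindle checkpoint kinase Bub1b, the centromeric histone Cenpa, the kinesin Kif20a, the chromosomal passenger Birc5 and cyclin A2 (Ccna2), at -0.46 to -0.65, named after their values were seen. Depdc1b, a mitosis gene outside the list, had 2.46, 1.17, 2.25, 2.40 and 2.31 FPKM at 1 to 5 h, against 5.78 FPKM at 0 h (-1.14 ± 0.22, limma adjusted p = 0.0234). It averaged 3.80 FPKM at 6 to 8 h and 3.75 FPKM at 9 to 12 h, and stood at 3.21 FPKM at 24 h.

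Promoters of G2 and M genes often carry the letters TTTGAA, the core of the cell cycle genes homology region. In the same RefSeq windows, searched on both strands, TTTGAA was present in 20 of 31 tested G2 and M members (64.5%), in 4 of the 6 called ones with a promoter and in 966 of 8322 promoters (11.6%). CCAAT, a box often found beside it, was in 25 of the 31 (80.6%) and in 39.8% of all. Ccnb2 has another TTTGAA match, 167 bases upstream, that is not shown. The 4 called genes are shown because they fell together, with the match in capitals (Cdkn3 carries it on the other strand) and its start given relative to the start site:
Ccnb2, 4 bases downstream, chr9:70421520-70421575, minus strand: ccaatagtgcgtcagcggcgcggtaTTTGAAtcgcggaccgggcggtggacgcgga
Cenpa, 16 bases downstream, chr5:30666877-30666932, plus strand: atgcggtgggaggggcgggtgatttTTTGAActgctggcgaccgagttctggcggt
Cdkn3, 111 bases upstream, chr14:46760405-46760460, plus strand: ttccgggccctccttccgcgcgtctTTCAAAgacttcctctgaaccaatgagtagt
Bub1b, 40 bases downstream, chr2:118598226-118598260, plus strand: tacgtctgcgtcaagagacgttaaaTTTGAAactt

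**Figure D3:**
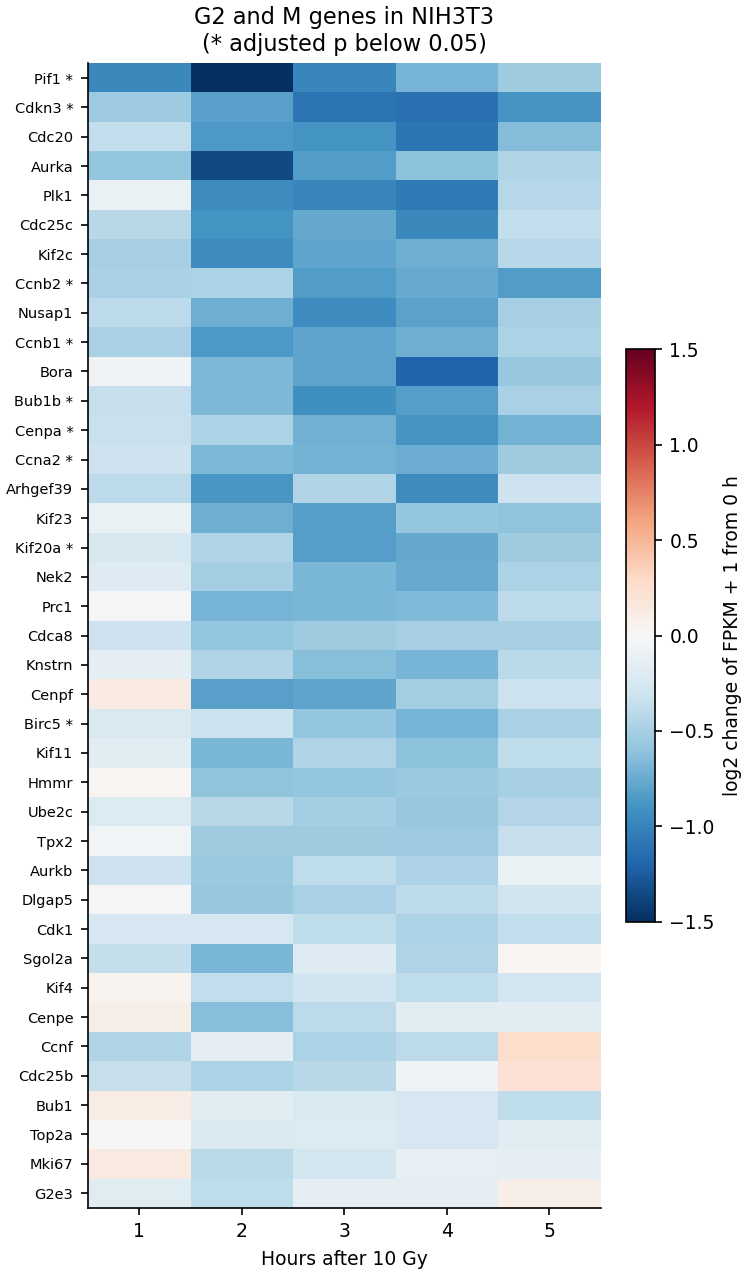
Each row is 1 of the 39 tested G2 and M genes and each column 1 irradiated library by hours after 10 Gy; colour gives the log2 change of FPKM + 1 from 0 h, blue for lower, and an asterisk marks the 9 genes that fell. The 1 h column is palest (median -0.24) and the 3 h column has the lowest median (-0.64).

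Genes of S phase and replication gave no call. Of 39 tested, 0 were called by limma, with a median change of -0.16 that ran from -0.05 at 1 h to -0.30 at 5 h. A negative change was seen in 34 of the 39. All 5 irradiated libraries lay below 0 h for 17 of them, where 27.9% of all tested genes did so. The sliding clamp gene Pcna averaged 81.1 ± 6.95 FPKM at 1 to 5 h (SD, n = 5) and stood at 86.2 FPKM at 0 h. The G1 cyclin gene Ccnd1 averaged 72.0 ± 1.27 FPKM at 1 to 5 h and stood at 73.7 FPKM at 0 h. Of 16 G1 cyclins and inhibitors, 0 were called by limma (median -0.05).

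Genes of other roles fell as well. Coa4, an assembly factor of cytochrome c oxidase, had 4.82, 4.32, 4.81, 5.12 and 4.86 FPKM at 1 to 5 h, against 10.1 FPKM at 0 h (-0.94 ± 0.14, limma adjusted p = 0.00772). Its irradiated values lay within a narrow range below 0 h. Serpinb8, a protease inhibitor gene (-0.90), the exon junction gene Magohb (-0.87), the centrosomal gene Cep89 (-0.84), Fam64a, a mitotic regulator (-0.74), Cmc2 (-0.77) and Rpain (-0.73) fell too. With the length trend removed Cep89, Fam64a and Rpain were not called (limma adjusted p = 0.0606, 0.0944 and 0.0854). In the list of amino acid stress and unfolded protein genes 2 of 24 fell and 1 rose. The fallers Creld2 and Manf, both made under endoplasmic reticulum stress, changed by -0.80 and -0.59, and had limma adjusted p = 0.0738 and 0.111 with the length trend removed. The riser Sesn3, a sestrin, had 1.65, 1.77, 1.90, 2.12 and 2.49 FPKM at 1 to 5 h, against 0.546 FPKM at 0 h (0.94 ± 0.19, limma adjusted p = 0.024). Its value was higher at each later hour.

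The matrix genes Fbn1, Col12a1 and Fn1, encoding fibrillin 1, a collagen and fibronectin, rose by 0.79, 0.74 and 0.74, as 3 of 29 extracellular matrix genes. Their transcripts are long, 7694 to 10909 bases, and 0 of 29 were called by limma with the length trend removed. Ulk1, the kinase that starts autophagy, rose by 0.90 ± 0.17 as 1 of 20 autophagy and lysosome genes, and stayed called with the length trend removed (limma adjusted p = 0.0443). Of 16 circadian clock genes 0 were called by limma, 14 had a positive change and the median was 0.33. The housekeeping lists had no called gene by limma: 28 cytoplasmic ribosomal protein genes (median -0.25), 28 oxidative phosphorylation genes (median -0.24) and 26 proteasome genes (median -0.17). In these lists all 5 irradiated libraries lay below 0 h for 23, 25 and 22 genes, where 27.9% of all genes did so. Their median transcript lengths were 798, 730.5 and 1211 bases, and with the length trend removed the medians were -0.14, -0.14 and -0.07.

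Lists of early signalling held no called gene. Of 30 immediate early genes 0 were called by limma (median 0.05), of 23 NF-kB and inflammatory genes 0 (median -0.03) and of 11 interferon stimulated genes 0 (median -0.05). The chemokine gene Ccl2 had 513, 530, 702, 498 and 350 FPKM at 1 to 5 h, against 612 FPKM at 0 h, so that the irradiated values lay on both sides of 0 h. The lists of heat shock, oxidative stress, glycolysis, cholesterol synthesis, ribosome biogenesis and TGF-beta feedback genes also had 0 called members by limma, with medians between -0.19 and 0.15. Over all tested genes 2233 had an unadjusted p below 0.05.

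**Figure D4:**
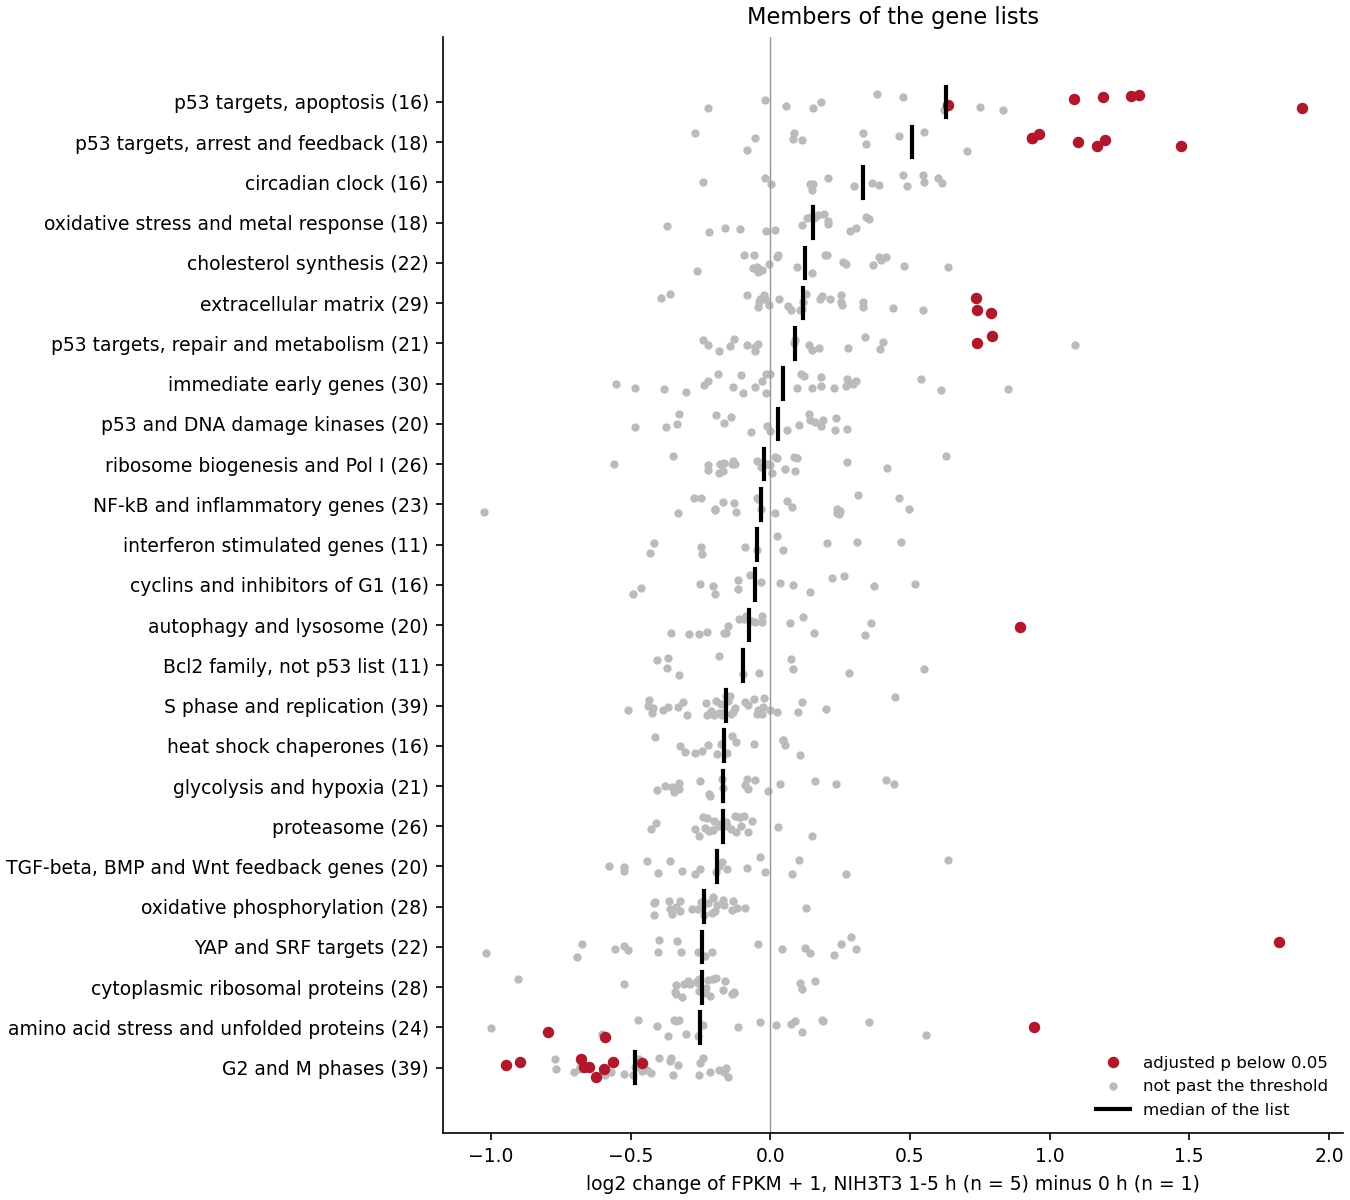
Each row is a gene list with its number of tested members, and each point a member's log2 change of FPKM + 1 at 1 to 5 h (n = 5 libraries) minus 0 h (n = 1), in red where the adjusted p was below 0.05; black bars are medians. The apoptosis and arrest targets of p53 have the highest medians, 0.63 and 0.51, and the G2 and M genes the lowest, -0.49.

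Spleen and thymus had libraries of the same hours, so the changes could be compared. The difference, the NIH3T3 change minus the mean of the spleen and thymus changes, was tested by limma in 1 fit over the 18 libraries at 0 to 5 h. Of 9562 genes 43 passed (0.45%), 11 with a higher and 32 with a lower change in NIH3T3. The p53 targets gave 13 of the 32, of 55 tested, and all 13 changed less in the fibroblasts. These targets came from the same lists, chosen with earlier results of these data known. Their median change over the 55 was 0.34 in NIH3T3, against 1.86 in spleen and 1.51 in thymus. The NIH3T3 side uses the same 0 h library as above, and each tissue has 1 library at 0 h. Cultured cells and whole organs also differ in cell types, and in an organ fewer cells of a type and less RNA per cell cannot be told apart. Against both intestines in place of spleen and thymus, 4 genes passed.

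Cdkn1a averaged 212 ± 52.98 FPKM at 1 to 5 h in NIH3T3 (SD, n = 5), against 240.0 ± 66.9 FPKM in spleen and 183 ± 89.3 FPKM in thymus at the same hours. At 0 h it stood at 89.7 FPKM in NIH3T3, against 4.45 FPKM in spleen and 9.88 FPKM in thymus. The irradiated means were thus closer between systems than the 0 h values, and the difference in change was -3.44 ± 0.46 (limma adjusted p = 0.00387). Plk2 averaged 67.4 ± 11.8 FPKM at 1 to 5 h in NIH3T3, against 62.3 ± 19.2 FPKM in spleen and 49.6 ± 20.2 FPKM in thymus, and stood at 62.8 FPKM at 0 h in NIH3T3, against 4.27 FPKM in spleen and 1.57 FPKM in thymus (difference -3.76 ± 0.36, limma adjusted p = 0.000389). Bbc3 averaged 5.68 ± 2.17 FPKM at 1 to 5 h in NIH3T3, against 53.1 ± 8.49 FPKM in spleen and 42.8 ± 10.98 FPKM in thymus (SD, n = 5 each). Its 0 h values were 1.81 FPKM in NIH3T3, against 2.42 FPKM in spleen and 2.63 FPKM in thymus (difference -2.57 ± 0.33, limma adjusted p = 0.00273). For Bbc3 the systems started close together and stood apart after irradiation.

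Pmaip1 differed by -1.59, averaging 4.99 ± 1.43 FPKM at 1 to 5 h in NIH3T3, against 74.5 ± 11.03 FPKM in spleen and 48.4 ± 10.3 FPKM in thymus. Its 0 h values were already apart, 1.39 FPKM in NIH3T3, against 11.6 FPKM in spleen and 4.31 FPKM in thymus. Bax differed by -2.18, Aen, an apoptosis-enhancing nuclease gene, by -2.31, Phlda3 by -2.68 and Ccng1 by -2.27. Tnfrsf10b, a death receptor gene, Gtse1, a p53-binding G2 protein, Ddias, Thyn1 and Rps27l, a ribosomal protein paralog, differed by -1.68 to -2.18. Among all genes, Errfi1, a feedback inhibitor of the EGF receptor (-2.98), and the uncharacterised Gm11974 (-2.75) also stood among the lowest. For Trp53inp1 and Btg2 the change in NIH3T3 was 1.90 and 1.47, against 1.99 and 0.89 in spleen and 1.57 and 0.94 in thymus. Neither difference passed the limma test (adjusted p = 0.889 and 0.59).

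In the other direction Rassf5 had the clearest value. It averaged 4.18 ± 1.00 FPKM at 1 to 5 h in NIH3T3, against 43.0 ± 2.45 FPKM in spleen and 48.9 ± 4.38 FPKM in thymus. At 0 h it was 0.597 FPKM in NIH3T3, low and from 1 library, against 63.7 FPKM in spleen and 66.2 FPKM in thymus. Its change was 1.67, against -0.56 in spleen and -0.43 in thymus (difference 2.17 ± 0.22, limma adjusted p = 0.000466). Tmem138, a membrane protein gene, differed by 1.71 and Snn, which encodes stannin, by 1.45. Snn had a change of 0.22 in NIH3T3, against -2.01 in spleen and -0.44 in thymus. Taf1a, Lst1 and Mapk1ip1 differed by 2.18, 1.74 and 1.71 and were listed near 0 in the NIH3T3 library at 0 h.

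**Figure D5:**
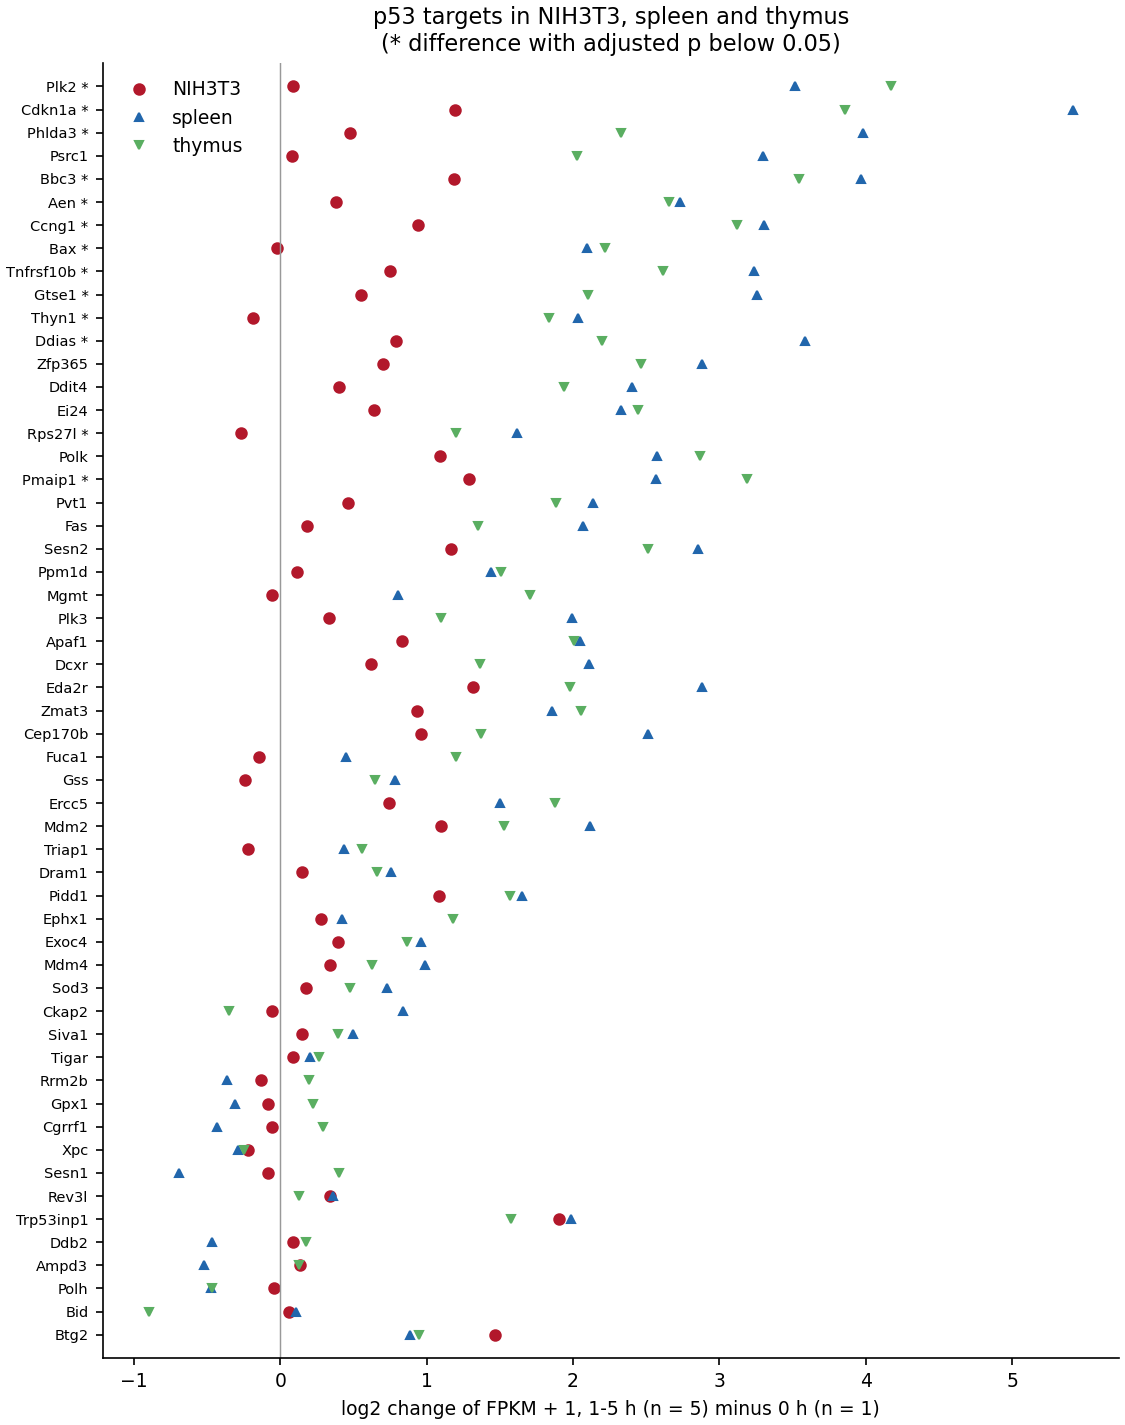
Each row is 1 of the 55 tested p53 targets, and points give the log2 change of FPKM + 1 at 1 to 5 h (n = 5) minus 0 h (n = 1) in NIH3T3 (circle), spleen and thymus (triangles); an asterisk marks an adjusted p below 0.05 for the difference. In 45 of the 55 rows the NIH3T3 circle lies below the mean of the triangles.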

How the data were processed

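The authors deposited FPKM values per gene symbol. Per the submitters' processing notes, TopHat2 2.1.0, Cufflinks 2.1.1 and build mm10 were used. Per the labels, polyadenylated RNA went into libraries that do not keep strand, so antisense partners cannot be separated. How the 13611 genes were chosen, and any further scaling of libraries, is not given in sources used here. Depth is unknown as counts. Steps between low FPKM values put the irradiated libraries at 1.19 to 1.67 times the depth of 0 h, with 13.3 to 21.6% of low genes at the ratio used, so these are rough. Such values limit precision for low genes.

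Here log2(FPKM + 1) was fitted with limma 3.58.1 in R 4.3.3, with a trended prior variance and 1 mean per window over the 14 NIH3T3 libraries (8 residual degrees of freedom). The check against spleen and thymus used 18 libraries. The steps were tested on simulated data. Transcript lengths are medians of coding transcripts in GENCODE M21. For the length alternative a loess curve (span 0.3) over log2 length was removed from each library. No sample column was left unused (0).

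Named genes were the 12 highest and 12 lowest called changes with all libraries at or above 0.1 FPKM, at most 4 called genes below that, called p53 targets, and for each other list up to 4 called members, or the 2 most abundant when none was called. For the difference they were the 6 highest and 6 lowest and the called p53 targets. Others were named after their values were seen. Members and lists were chosen with earlier results of these data known.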

Additional observations from a re-analysis of the deposited data

Results flagged for a closer look

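Among the 81 named genes tested for a gap, 6 had 1 of the 5 irradiated libraries set apart by a gap above 0.71 of the range, Dixon's critical value. Chance sets apart about 1 in 20 groups. Depdc1b was lowest at 2 h with 1.17 FPKM, Whrn at 2 h with 0.854 FPKM, Ccng1 at 1 h with 181 FPKM and Ei24 at 1 h with 40.2 FPKM. Taf1a was highest at 1 h with 4.13 FPKM and Id2, an inhibitor of differentiation factors, at 1 h with 138 FPKM.

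The change in NIH3T3 minus the mean change in spleen and thymus passed the limma test of the difference for 43 of 9562 genes. The 21 listed here were picked from those 43, so their passing is no further result. The difference was 2.18 for Taf1a, 2.17 for Rassf5, 1.74 for Lst1, 1.71 for Tmem138, 1.71 for Mapk1ip1 and 1.45 for Snn. It was -3.76 for Plk2, -3.44 for Cdkn1a, -2.98 for Errfi1, -2.75 for Gm11974, -2.68 for Phlda3, -2.57 for Bbc3, -2.31 for Aen and -2.27 for Ccng1. It was -2.18 for Bax, -2.18 for Tnfrsf10b, -2.13 for Gtse1, -2.12 for Thyn1, -2.10 for Ddias, -1.68 for Rps27l and -1.59 for Pmaip1.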

How the results depend on the processing

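The 219 genes called at 1 to 5 h became 145 with no level filter, 118 with quantile normalization and 53 when the 6 libraries were fitted alone. They became 140 with 1 to 5 h as 1 window, 131 with the length trend removed and 41 with a 2-fold threshold on FPKM + 1. Leaving out 1 library gave 92 to 326 genes, lowest without the 4 h library. A pseudocount of 0.1 gave 265, a filter of 5 FPKM 242, median ratio scaling 223 and length and GC trends removed 204. With quantile normalization 105 rose and 13 fell. The 1 gene called between 3 to 5 h and 1 to 2 h became 0 with a pseudocount of 0.1, quantile normalization or the separate fit. The count was also 0 with no variance trend or a 2-fold threshold on FPKM + 1. It was 2 with a filter of 5 FPKM and 4 with length and GC trends removed. With no level filter 1 gene passed, which was not Mdm2. Leaving out 1 library gave 1 to 59. The 43 differences from spleen and thymus became 67 with a pseudocount of 0.1, 216 with all libraries of the 3 systems, 4 against the intestines, 28 against spleen and 205 against thymus, and 31 to 39 without 1 library. The causes were not tested. Named genes past the threshold kept their direction in all these settings. Some with values near 0 that did not pass turned sign, as Bax to 0.11 and Pcna to 0.01 with the length trend removed. Counting each gene in each setting, 1149 changes stayed on their side of the threshold, 123 lost it and 2 gained it, and of the differences 217 stayed and 48 lost it. No paired analysis was possible because 0 h is 1 library. The lower depth at 0 h, which is only roughly estimated, may limit genes near 1 FPKM.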
